A study of Homo sapiens with 6 samples.

Results

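Interferon-stimulated genes were followed in MV4-11 cells that carried either a hairpin against PRMT5 or a scrambled hairpin. The members were 45 named genes of the interferon response and its regulators, taken by symbol from the 23698 gene rows of the count tables. Each symbol matched 1 row, and 43 of the 45 had enough reads to be tested. They were grouped by role into 9 sets, from the sensors of viral RNA to the antiviral effector proteins.

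Interferons are secreted proteins that warn neighbouring cells of infection. Type I interferons bind IFNAR1 and IFNAR2, and the kinases JAK1 and TYK2 then start the signal in which STAT2 and IRF9 become part of the factor ISGF3. ISGF3 binds the interferon-stimulated response element (ISRE) in the promoters of antiviral genes, whereas type II interferon acts through the gamma-activated site (GAS). Double-stranded RNA, including RNA delivered by a vector, can switch on the same genes through cytosolic sensors, so these genes also serve as a check for a response to a hairpin vector.

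MV4-11 is a leukaemia line with monocytic features and a FLT3 internal tandem duplication. The knockdown group was 3 libraries of cells stably transduced by lentivirus with a short hairpin RNA against PRMT5, an arginine methyltransferase gene. The control group was 3 libraries of cells transduced with a scrambled hairpin vector. All 6 libraries thus came from cells that carry a lentiviral hairpin, and untransduced cells were not analysed here. A response to the vector that both groups share therefore cannot be told apart from the level the line has without it. The labels name neither the hairpin sequence nor a clone, and do not say whether each replicate had its own culture. The p-values accordingly set the difference between groups only against the spread between these libraries, and that spread may be technical.

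Library totals were 16408585 to 19077171 counts. PRMT5 itself was at 103, 71.6 and 53.0 CPM (counts in 1000000 of the library, TMM-scaled) with its own hairpin and at 133, 53.2 and 158 CPM with the scrambled hairpin. Values are given in the order of the replicate numbers 1, 2 and 3 here and below, and libraries are called knockdown or control with that number. The library labelled control 2 therefore had a PRMT5 level of the knockdown group, against its label, and every direction below that uses it carries this limit; the PRMT5 log2 difference was −0.60 (SE 0.43) with it and −0.94 without it. It was the highest or the lowest of the 6 libraries for 34.4% and 36.7% of all tested genes. Genes of the labelled cell type were present in every library, with FLT3 at 283 to 515 CPM and CD33 at 43.9 to 53.8 CPM, but the library labelled control 2 differed in several: LYZ was at 35.3 CPM there and at 430 to 1268 CPM elsewhere, and HOXA9 at 296 CPM there and at 78.5 to 96.2 CPM elsewhere. The part of these differences in the results below was not tested. Of the markers looked up for other cell types, CD3E, EPCAM, PAX2, COL1A2 and COL3A1 had 0 counts in all 6 libraries and MS4A1 at most 1. Other markers on the same lists were expressed: NCAM1 was at 153 to 178 CPM, IL3RA at 61.5 to 103.6 CPM, PECAM1 at 20.6 to 74.5 CPM, KRT18 at 11.2 to 24.5 CPM, KRT8 at 3.88 to 27.6 CPM, PAX5 at 5.97 to 15.6 CPM and TCF4 at 4.54 to 12.6 CPM. COL1A1 had 77 counts in the library labelled control 2 and at most 6 in the others. In bulk RNA, fewer cells of a type and less RNA per cell cannot be told apart.

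The ISRE core was looked for in the promoters of the members, to show the sequence through which this family is known to be driven. The windows were RefSeq promoters of build GRCh38.p14, from 250 bases before to 50 after a gene's start. Of the 45 members 36 had a window; DHX58, IRF7, USP18, OAS2, OASL, IFIT2, MX2, GBP2 and IFITM2 had none. The motif GAAANNGAAA, or TTTCNNTTTC on the other strand, was present in 24 of the 36 (66.7%), against 4.38% of the 27305 genes in the table. Per window it was in 28 of 47 (59.6%) for the members and in 3.57% of all 35116 windows. The GAS core TTCNNNGAA, which reads alike on both strands and can overlap the ISRE core, was in 9 of the 36 (25.0%) and in 9.38% of all genes. A match describes these letters and is not evidence of a bound factor. DDX58 was matched through its current symbol RIGI. The 22 tested members with an ISRE core had a median log2 difference between the hairpins of −0.11, with 14 below 0, and the 12 without one a median of −0.01, with 6 below 0.

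Stretches upstream of the start are shown for 8 members, all chosen among those with an ISRE core there. No sensor, transcription factor or double-stranded RNA enzyme is among these 8. STAT2 and XAF1, described below, had no ISRE core in their windows, and GBP2 had no window. Each stretch is written 5′ to 3′ on the gene's strand, with ISRE cores and adjacent GAS cores in capitals. Adjoining capitals are matches that touch or overlap.
ISG15 (chr1:1013364-1013419, plus strand, 2 ISRE cores): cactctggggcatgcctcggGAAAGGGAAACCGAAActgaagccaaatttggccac
IFIT1 (chr10:89392487-89392549, plus strand, 2 ISRE cores): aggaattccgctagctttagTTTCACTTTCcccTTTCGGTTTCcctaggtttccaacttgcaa
HERC5 (chr4:88456974-88457074, plus strand, 3 ISRE cores): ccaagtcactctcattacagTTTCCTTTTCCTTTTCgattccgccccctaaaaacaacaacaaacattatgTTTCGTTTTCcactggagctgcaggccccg
BST2 (chr19:17405725-17405786, minus strand, 2 ISRE cores and 1 GAS core): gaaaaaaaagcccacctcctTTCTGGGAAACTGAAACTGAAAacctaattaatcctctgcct
IFITM3 (chr11:320866-320932, minus strand, 2 ISRE cores): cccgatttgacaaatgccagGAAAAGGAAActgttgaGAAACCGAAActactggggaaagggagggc
PARP14 (chr3:122680779-122680838, plus strand, 1 ISRE core and 1 GAS core): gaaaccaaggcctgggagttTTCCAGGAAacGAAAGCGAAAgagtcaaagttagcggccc
GBP1 (chr1:89065306-89065355, minus strand, 1 ISRE core): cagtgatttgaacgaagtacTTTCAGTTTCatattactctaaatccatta
SAMD9 (chr7:93118086-93118135, minus strand, 1 ISRE core): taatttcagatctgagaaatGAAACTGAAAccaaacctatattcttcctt

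None of the interferon-stimulated genes passed the test between the hairpins. In edgeR (quasi-likelihood F), 0 of the 43 tested members had an adjusted p under 0.05, as did 0 of all 13668 tested genes (0.00%). At an unadjusted p under 0.05 there was 1 member (background 1.77%): GBP1, on the lower side, where the share over all genes was 1.20%. On the higher side there was 0, against 0.571%. DESeq2 also called 0 members (0.00% of genes), with 2, GBP1 and GBP2, at an unadjusted p under 0.05, against 3.37% of genes. limma-voom called 0, with GBP1 alone at an unadjusted p under 0.05, against 0.856% of genes. With a replicate block 0 were called and 3, GBP1, GBP2 and XAF1, had an unadjusted p under 0.05, against 3.19% of genes. The log2 difference, knockdown minus control, was negative for 28 members and positive for 15, with a median of −0.12. Over all tested genes 50.1% were negative and 49.9% positive, with a median of −0.00069. Without knockdown 1 the split of the members was 23 negative to 20 positive and the median −0.05. Knockdown 1 was the lowest of 6 libraries for 16 of the 43 members, against 2403 of all 13668 tested genes. Without the library labelled control 2 the split was 31 to 12 and the median −0.13. With that library left out, 1 member, HERC5, had an unadjusted p under 0.05, against 0.744% of genes. Without both libraries numbered 2, ISG15 was the 1 such member of 41, against 0.396% of genes. Groups did not overlap for 1 member, GBP1, against 6.24% of all genes: the knockdown values lay below all controls for 3.10% of genes and above for 3.14%. Adjusted p-values of the members ran from 0.926 to 0.997 (edgeR).

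**Figure D1:**
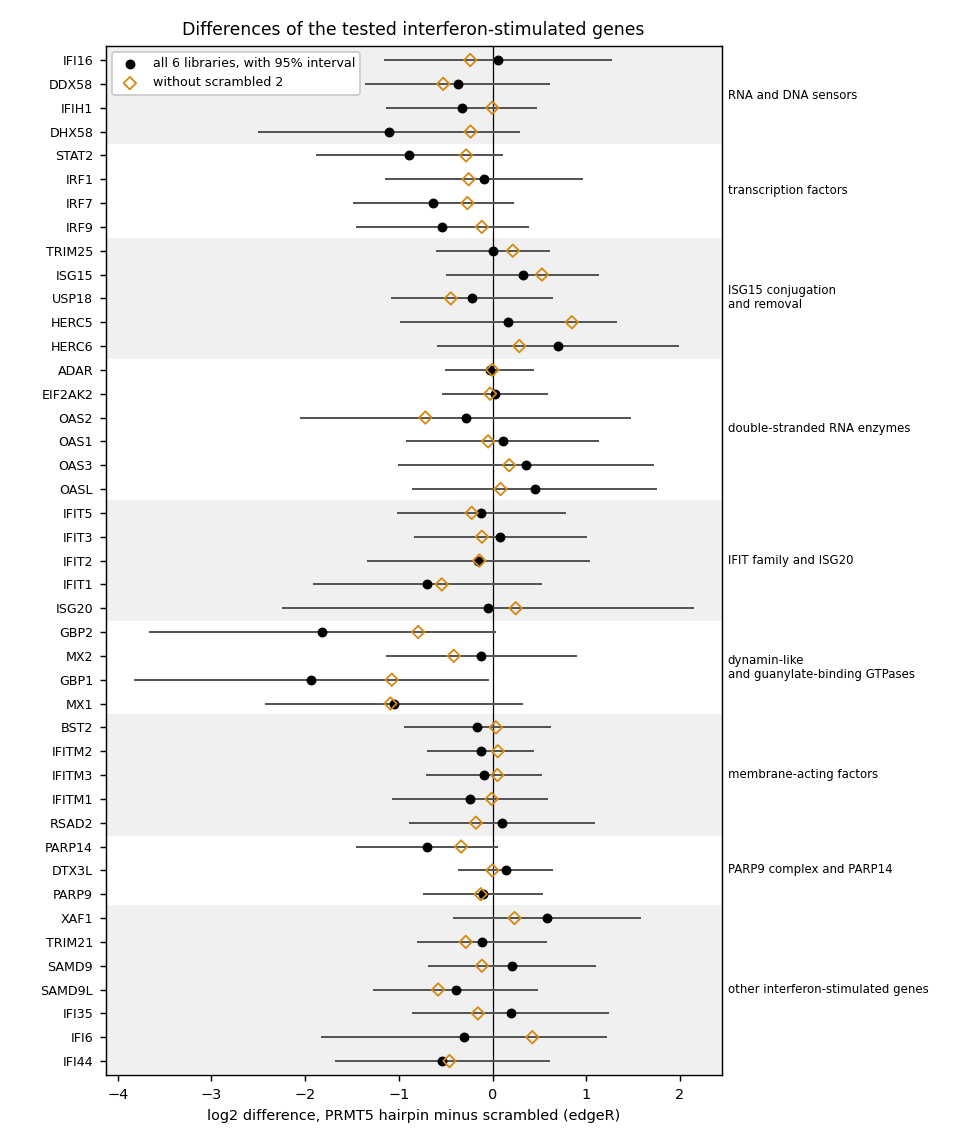
Log2 difference of each tested interferon-stimulated gene, knockdown minus control, with its 95% interval over all 6 libraries (black) and the estimate without the library labelled control 2 (orange diamond); shading separates the roles. The interval of GBP1, −3.83 to −0.04, is the 1 of the 43 that lies on one side of 0, and the estimate of GBP2 moves from −1.82 to −0.79 without that library.

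The precision of these estimates was limited. The half-width of the 95% interval had a median of 1.00 on the log2 scale and was 0.476 for the most precisely measured member. Intervals lay wholly within a 2-fold change for 9 members, and their upper bound was under a 2-fold increase for 27 of the 43. For the rest of those 27 a 2-fold decrease was within the interval, as for STAT2 (−1.88 to 0.11). Some of the other members also had a 2-fold decrease within theirs, such as IFI16 (−1.16 to 1.28). ADAR, which encodes the enzyme that edits adenosine in double-stranded RNA, had the narrowest interval (−0.50 to 0.45). ISG15, a ubiquitin-like protein and a classical first responder to interferon, had −0.49 to 1.13, so an increase just over 2-fold was within its interval.

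The members differed widely in level. Divided by the length of the longest coding transcript (GENCODE 29), the highest means over 6 libraries were ADAR at 66.3, BST2 at 64.7 and IFITM2 at 47.0 CPM per kilobase. MX1, OASL and IFIT1, all strongly induced by interferon in many cell types, were the lowest tested members at 0.177, 0.241 and 0.254 CPM per kilobase. The median member was at 3.43 CPM per kilobase, against 9.51 for the 11468 tested genes with a length, and 29 of the 43 lay below that median. The members thus ran from the 1.38th percentile of tested genes for MX1 to the 92.5th for ADAR. On the CPM scale 17 of the 45 members averaged under 5 CPM, and ISG20, IFI27, IFI44 and IFI44L stayed under 1 CPM in every library. IFI27 and IFI44L, both markers of the type I response, were not tested: they had 0 to 10 and 0 to 12 counts per library. The highest library was over 10 times the lowest for ISG20, GBP1 and GBP2 (3 members; 4.43% of tested genes).

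**Figure D2:**
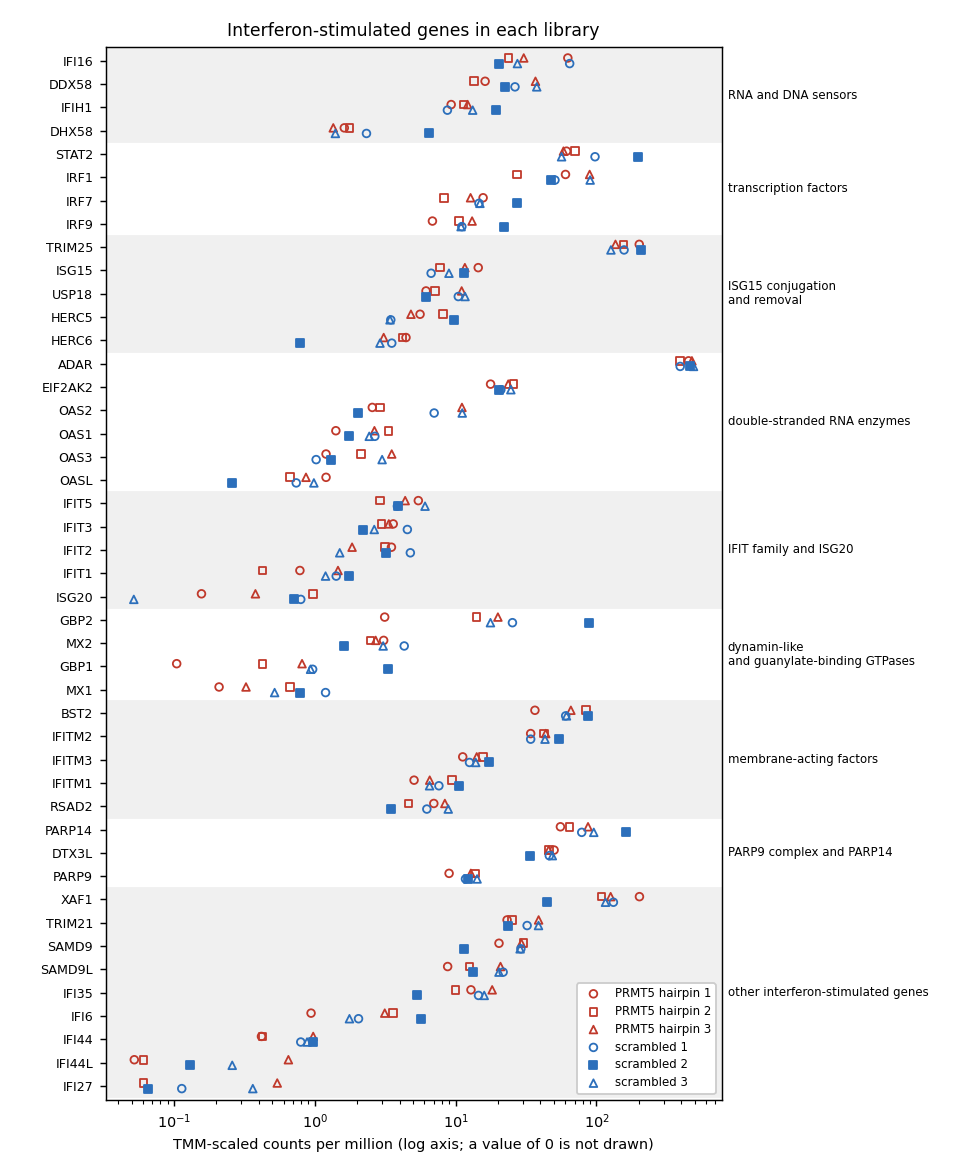
CPM of the 45 interferon-stimulated genes in each library on a log axis, by role; red is knockdown, blue control, the shape gives the replicate number, and the filled square is the library labelled control 2. That library is the highest of 6 for STAT2 (197 CPM) and GBP2 (87.9 CPM) and the lowest for XAF1 (44.7 CPM) and HERC6 (0.778 CPM); genes are compared with themselves here, since CPM is not per length.

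The sensors detect foreign nucleic acid and start the response. DDX58, which encodes the RNA sensor RIG-I, was at 16.2, 13.5 and 36.9 CPM with the PRMT5 hairpin and 26.4, 22.2 and 37.7 CPM with the scrambled hairpin. The highest values were in both libraries numbered 3, and the groups overlapped (log2 difference −0.37, SE 0.42). IFI16, a sensor of DNA, was at 62.6, 23.8 and 30.4 CPM with the PRMT5 hairpin and 64.5, 20.2 and 27.5 CPM with the scrambled hairpin. Its level followed the replicate number and not the hairpin, with a log2 difference of 0.06 (SE 0.52) that was −0.24 without the library labelled control 2. DHX58, the regulatory helicase LGP2, was at 1.62, 1.76 and 1.35 CPM against 2.33, 6.48 and 1.40 CPM. Its log2 difference of −1.10 (SE 0.60) became −0.23 without the library labelled control 2. IFIH1, which encodes MDA5, had −0.33 and, without that library, −0.0023. The median over the 4 sensors was −0.35, and −0.24 without it.

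The 4 transcription factors all had negative log2 differences, with a median of −0.58 (−0.26 without the library labelled control 2), and none passed the test. STAT2, the subunit specific to type I and III signalling, was at 61.3, 70.2 and 58.3 CPM with the PRMT5 hairpin and 97.6, 197 and 56.5 CPM with the scrambled hairpin. Control 3 was below every knockdown library, so the groups overlapped, and the highest value was in the library labelled control 2. Its mean was 63.3 ± 6.21 CPM (SD, n = 3) against 117.1 ± 72.3 CPM (SD, n = 3). The log2 difference of STAT2 was −0.89 (SE 0.43, 95% interval −1.88 to 0.11, adjusted p = 0.926 in edgeR) and −0.28 without that library. IRF9, the DNA-binding subunit of ISGF3, was at 6.84, 10.5 and 13.1 CPM against 11.1, 22.1 and 10.9 CPM. IRF7, which amplifies interferon production, was at 15.7, 8.26 and 12.8 CPM against 14.6, 27.4 and 14.9 CPM. For both, the library labelled control 2 was the highest of 6, and their log2 differences of −0.53 and −0.63 became −0.11 and −0.27 without it. IRF1, a factor of the type II response, was at 60.3, 27.3 and 89.4 CPM against 50.7, 47.5 and 90.2 CPM. It was highest in both libraries numbered 3 and differed by −0.09 (SE 0.45), or by −0.25 without the library labelled control 2.

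ISG15 is attached to other proteins by E3 ligases such as HERC5 and removed by USP18, which also damps receptor signalling. ISG15 was at 14.5, 7.71 and 11.6 CPM with the PRMT5 hairpin and 6.69, 11.4 and 8.96 CPM with the scrambled hairpin. Values interleaved between groups, with a log2 difference of 0.32 (SE 0.35) that was 0.53 without the library labelled control 2. TRIM25, a ubiquitin ligase that activates RIG-I, was at 201, 156 and 136 CPM against 157, 208 and 127 CPM, a difference of 0.01 (SE 0.26), or 0.22 without that library. HERC6 was at 4.44, 4.19 and 3.08 CPM against 3.52, 0.778 and 2.90 CPM. The low value was that of the library labelled control 2, with 12 counts, and the HERC6 log2 difference of 0.70 (SE 0.55) was 0.29 without it. HERC5 ran the other way there: that library held its highest value, 9.66 CPM, and leaving it out moved the log2 difference from 0.17 to 0.85. USP18 had −0.22, or −0.45 without it, and the median over these 5 genes was 0.17, or 0.29 without it.

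Enzymes that act on double-stranded RNA did not share a direction, with 4 positive and 2 negative differences and a median of 0.07. Leaving out the library labelled control 2 turned this to 2 positive and 4 negative, with a median of −0.013. ADAR was at 451, 393 and 476 CPM with the PRMT5 hairpin and 393, 464 and 489 CPM with the scrambled hairpin, and the ranges nearly coincided (log2 difference −0.03, SE 0.20). EIF2AK2, which encodes the kinase PKR, was at 17.7, 25.8 and 23.6 CPM against 20.9, 20.2 and 24.7 CPM (0.03, SE 0.24). PKR halts translation when it binds double-stranded RNA. The OAS genes make the second messenger that activates RNase L, and OASL is a relative without that activity. OASL was at 1.20, 0.668 and 0.865 CPM against 0.738, 0.259 and 0.984 CPM, that is 4 to 23 counts per library, with a log2 difference of 0.45 (SE 0.56) that was 0.09 without the library labelled control 2. OAS2 was at 11.1 CPM in both libraries numbered 3 and at 2.01 to 7.04 CPM in the other 4, a difference of −0.29 (SE 0.76). OAS1 and OAS3 had 0.11 and 0.36. Without the library labelled control 2 these were −0.72 for OAS2, −0.0471 for OAS1 and 0.18 for OAS3.

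The IFIT proteins bind foreign RNA ends and ISG20 is an exonuclease. IFIT5 was at 5.43, 2.92 and 4.38 CPM with the PRMT5 hairpin and 3.86, 3.89 and 6.06 CPM with the scrambled hairpin, a log2 difference of −0.12 (SE 0.39). IFIT3 was at 3.60, 2.98 and 3.35 CPM against 4.54, 2.20 and 2.64 CPM (0.08, SE 0.40). In both genes all knockdown values fell within the range of the control values or within 1 CPM of it. ISG20 was at 0.157, 0.972 and 0.378 CPM against 0.794, 0.713 and 0.0518 CPM. These are 1 to 16 counts, and the log2 difference was −0.05 (SE 0.94). Leaving out the library labelled control 2 gave −0.22 for IFIT5, −0.11 for IFIT3 and 0.25 for ISG20. IFIT1, the archetype of the family, held 7 to 27 counts per library and had −0.70 (SE 0.52), and IFIT2 had −0.15. The median of these 5 genes was −0.12.

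The GTPases had the lowest median of the 9 roles, −1.43 (−0.93 without the library labelled control 2), and all 4 differences were negative. GBP1 and GBP2 are guanylate-binding proteins that are typical targets of type II interferon and attack intracellular pathogens. GBP2 was at 3.13, 14.0 and 19.95 CPM with the PRMT5 hairpin and 25.3, 87.9 and 17.7 CPM with the scrambled hairpin. Knockdown 3 exceeded control 3, so the groups overlapped, and the ends of the range were knockdown 1 and the library labelled control 2. Its mean was 12.4 ± 8.53 CPM (SD, n = 3) against 43.6 ± 38.5 CPM (SD, n = 3). The log2 difference of GBP2 was −1.82 (SE 0.79, 95% interval −3.67 to 0.04; unadjusted p = 0.0536 and adjusted p = 0.926 in edgeR), and −0.79 without that library. GBP1 was at 0.104, 0.425 and 0.811 CPM against 0.965, 3.31 and 0.932 CPM, from 2, 7 and 15 counts against 17, 51 and 18. All knockdown values were below all control values, although knockdown 3 and control 3 differed by 3 counts. Its log2 difference was −1.93 (SE 0.81; unadjusted p = 0.0465, adjusted p = 0.926 in edgeR) and −1.08 without the library labelled control 2. The dynamin-like GTPases trap viral nucleocapsids. MX2 was at 3.08, 2.49 and 2.70 CPM against 4.31, 1.62 and 3.06 CPM (−0.12, SE 0.44; −0.41 without that library), while MX1, with 4 to 21 counts per library, had −1.05 (SE 0.59).

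Factors that act at membranes had differences between −0.24 and 0.10. BST2, or tetherin, which holds budding virus at the cell surface, was at 36.5, 84.3 and 65.8 CPM with the PRMT5 hairpin and 60.4, 87.3 and 61.2 CPM with the scrambled hairpin. The low library was knockdown 1, and the log2 difference was −0.16 (SE 0.34). IFITM2, which blocks fusion of virus in endosomes, was at 34.1, 42.5 and 43.6 CPM against 34.1, 54.0 and 43.1 CPM (−0.13, SE 0.24). Its same-numbered libraries were alike in numbers 1 and 3 and differed by −0.34 in number 2. IFITM1 and IFITM3 had −0.24 and −0.09, and RSAD2, which encodes viperin, had 0.10. Leaving out the library labelled control 2 gave 0.036 for BST2, 0.0565 for IFITM2, 0.0518 for IFITM3, −0.0093 for IFITM1 and −0.18 for RSAD2. Because IFITM genes are close copies of one another, reads may be split between them in a way that the sources used here do not describe.

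PARP9 and DTX3L form a complex that modifies histones and aids interferon-driven transcription, and PARP14 is a related ADP-ribosyltransferase. PARP14 was at 55.5, 64.4 and 87.1 CPM with the PRMT5 hairpin and 78.6, 162 and 95.7 CPM with the scrambled hairpin. Knockdown 3 was above control 1, so the groups overlapped. The log2 difference was −0.70 (SE 0.33; unadjusted p = 0.0662, adjusted p = 0.926 in edgeR) and −0.33 without the library labelled control 2. DTX3L was at 50.02, 46.0 and 45.8 CPM against 46.2, 33.9 and 48.6 CPM. Its low value was again in that library, without which the log2 difference of 0.14 (SE 0.22) was −0.0012. PARP9, which shares a promoter region with DTX3L, had −0.10 (SE 0.28).

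Among the remaining members XAF1 had the largest positive difference. XAF1, a pro-apoptotic antagonist of XIAP, was at 202, 109 and 126 CPM with the PRMT5 hairpin and 132, 44.7 and 116 CPM with the scrambled hairpin. Control 1 exceeded knockdown 2 and 3, and the low value was that of the library labelled control 2. The log2 difference of XAF1 was 0.58 (SE 0.43), and 0.23 without that library. TRIM21, a cytosolic antibody receptor, was at 23.2, 25.1 and 38.8 CPM against 32.2, 23.5 and 38.7 CPM (−0.12, SE 0.30), highest in both libraries numbered 3. SAMD9 and SAMD9L, neighbouring genes on chromosome 7 whose products restrict poxviruses and cell growth, had 0.21 and −0.39. IFI6, IFI35 and IFI44 had −0.30, 0.19 and −0.53, IFI44 with 7 to 18 counts per library. Leaving out the library labelled control 2 turned SAMD9 to −0.11, IFI35 to −0.16 and IFI6 to 0.42, and moved TRIM21 to −0.29.

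The same-numbered libraries gave different pictures of the family. In number 1 the knockdown library was lower for 29 of 43 members and the median log2 CPM difference was −0.43, against −0.0044 over all genes. In number 2 it was −0.14 with 18 members higher, and in number 3 it was 0.02 with 25 higher. Over all tested genes the medians in numbers 2 and 3 were 0.050 and −0.0016. The shares of all genes higher in the knockdown library were 49.6%, 52.1% and 49.6% in numbers 1, 2 and 3. PRMT5 itself differed by −0.36, 0.43 and −1.58 in numbers 1, 2 and 3, so in number 2 it was higher in the knockdown library. In number 3, 40 of the 43 members differed by less than 0.5, as did 94.5% of all tested genes. DDX58, DHX58, MX1, GBP1 and PARP14 were lower in the knockdown library of every pair (5 of 43; 14.1% over all genes), and HERC6, OAS3 and XAF1 were higher in every pair (3 of 43; 14.6% over all genes).

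**Figure D3:**
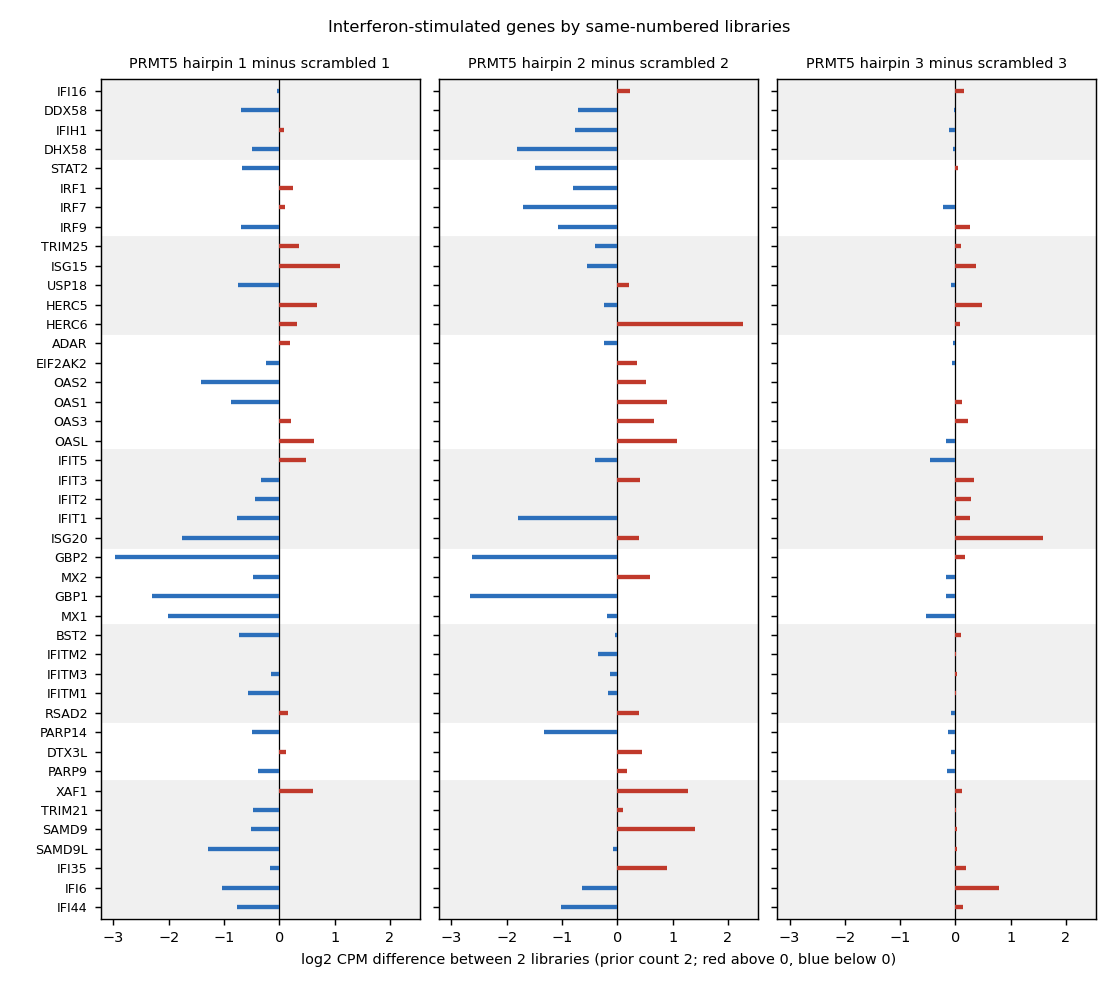
Log2 CPM difference of each tested interferon-stimulated gene between the knockdown and control library of the same number, in 3 panels with the same axis; red is higher and blue lower in the knockdown. In panel 3, 40 of 43 values lie within 0.5 of 0 and ISG20 is at 1.58, whereas GBP2 reaches −2.97 in panel 1 and −2.64 in panel 2.

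The library labelled control 2 did not differ in 1 direction over the family. It was the highest of 6 libraries for 16 of the 43 tested members and the lowest for 12, against 34.4% and 36.7% of all tested genes. Against the mean of controls 1 and 3 in log2 CPM, it was over 2-fold higher for 8 members (18.6%; 15.1% of all genes) and over 2-fold lower for 9 (20.9%; 15.2% of all genes). GBP2 (2.05), DHX58 (1.78), GBP1 (1.69), IFI6 (1.52), HERC5 (1.46) and STAT2 (1.41) led the higher side. OAS2 (−2.08), HERC6 (−1.89), IFI35 (−1.50), XAF1 (−1.47) and OASL (−1.38) led the lower side. Among the over 2-fold higher members HERC5, IFI6, GBP1 and ISG20 carry the ISRE core and STAT2 and IRF9 do not. ISG20 is counted there through control 3, which had 1 count. It was at 0.713 CPM in the library labelled control 2, below the 0.794 CPM of control 1. DHX58 and GBP2 had no window. Among the over 2-fold lower members SAMD9 (−1.33) and RSAD2 (−1.06) carry it and HERC6, IFI35, XAF1 and IFI16 do not. OAS2, OASL and MX2 had no window. Summed over the family, counts were 1678 CPM in the library labelled control 2, 1420 and 1485 CPM in controls 1 and 3, and 1277 to 1497 CPM in the knockdown libraries. All tested genes together summed to 9.5835e+05 to 9.9575e+05 CPM in the other libraries and to 1.1354e+06 CPM in that library. Its TMM-scaled sum was thus the highest over all genes too, and the family sum is not particular to these members. A list of epithelial and packaging-cell markers, 4 of whose 6 genes were under 1 CPM in every library, summed to 52.1 CPM there. It summed to 15.3 and 27.4 CPM in controls 3 and 1 and to 17.0 to 28.1 CPM in the knockdown libraries. In the library labelled control 2, KRT8 was at 27.6 CPM and KRT18 at 24.5 CPM, whereas EPCAM, PAX2 and CDH1 had 0 counts and KRT19 had 1. The fibroblast and endothelial list summed to 27.9 CPM there and to 57.2 to 77.2 CPM elsewhere. The B-cell list summed to 6.61 CPM there and to 11.9 to 15.95 CPM elsewhere. The part of these differences in the results was not tested.

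The interferon genes themselves had almost no reads. Of 21 interferon ligand genes, 20 had 0 counts in all 6 libraries, which allows up to 3 counts or 0.155 to 0.195 CPM per library. IFNB1 had 1 count in each of knockdown 1 and 2. The receptors were expressed. IFNAR1 was at 59.2, 74.8 and 56.2 CPM with the PRMT5 hairpin and 64.96, 27.4 and 59.7 CPM with the scrambled hairpin (log2 difference 0.32, SE 0.34). IFNAR2 was at 30.3, 42.0 and 46.6 CPM against 54.5, 82.0 and 46.5 CPM (−0.62, SE 0.29), and knockdown 3 and control 3 were nearly equal. The type II receptor genes IFNGR1 and IFNGR2 had −0.06 and −0.17, and IL10RB, shared by interferon lambda, −0.38. Leaving out the library labelled control 2 gave 0.0281 for IFNAR1, −0.35 for IFNAR2, 0.38 for IFNGR1, −0.0245 for IFNGR2 and −0.25 for IL10RB. IL28RA, the other lambda receptor subunit, had at most 5 counts and was not tested.

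Among the kinases at the receptors, TYK2 was at 192, 245 and 287 CPM with the PRMT5 hairpin and 235, 401 and 264 CPM with the scrambled hairpin (log2 difference −0.31, SE 0.28), and JAK1 and JAK2 had −0.02 and −0.05. Leaving out the same library gave −0.0454 for TYK2, 0.0497 for JAK1 and 0.0544 for JAK2. None of the 88 tested pathway genes outside the family passed the test. Their log2 differences were positive for 36 and negative for 52, with a median of −0.05, and 41 and 47 with a median of −0.0218 without that library.

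Among sensors and adaptors upstream of interferon, 9 differences were positive and 6 negative. TRAF6, an adaptor ligase of Toll-like receptors, was at 77.7 CPM in the library labelled control 2 and at 19.3 to 21.6 CPM in the other 5. Its log2 difference of −0.95 (SE 0.53) was 0.0077 without that library. TRAF3 had 0.53 and TLR4, at 0.259 to 3.77 CPM, 1.23, which were 0.34 and 0.81 without it. Of the other regulatory factors, IRF3, IRF2BP1 and IRF8 had −0.25, 0.22 and 0.29, and without it −0.18, 0.20 and 0.0725. Among negative regulators, SOCS3, PIAS1 and PTPN11 had −0.91, −0.34 and 0.23, and without it −0.43, −0.14 and 0.14. Of 45 tested other interferon-induced genes, 17 were positive and 28 negative, or 19 and 26 without it. TRIM22, an antiviral TRIM protein, was at 229, 218 and 202 CPM with the PRMT5 hairpin and 119, 173 and 165 CPM with the scrambled hairpin. All its knockdown values lay above all control values, with a log2 difference of 0.51 (SE 0.22; unadjusted p = 0.0497, adjusted p = 0.926 in edgeR) and 0.61 without the library labelled control 2. Of the 88 tested pathway genes, 2 lay wholly above the controls and 2 wholly below, against 3.14% and 3.10% of all genes. TRIM22 was the 1 of the 88 with an unadjusted p under 0.05 in edgeR, against 1.77% of all genes. APOBEC3G and SP110 had −0.77 and −0.81, and without it −0.72 and −0.42.

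**Figure D4:**
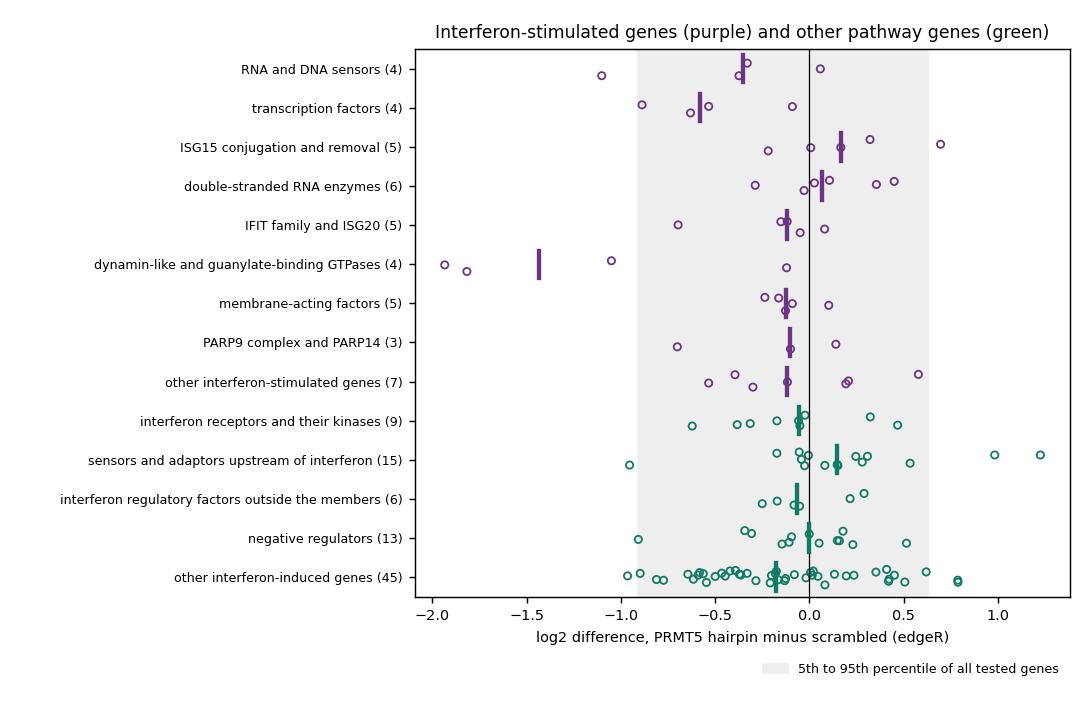
Log2 difference, knockdown minus control, of every tested gene by role (purple, the interferon-stimulated genes) and by pathway list (green), with a bar at each median and the number tested in brackets; the grey band spans the 5th to 95th percentile of all tested genes, −0.91 to 0.63. Most points lie in the band, and the GTPases, with a median of −1.43, have 3 of 4 points below it.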

How the data were processed

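Poly(A) RNA-seq of 6 libraries was used. The authors' deposited values are estimated counts per gene row, not scaled to depth. Per the submitters' processing notes, CASAVA 1.9, TopHat2 version 2, edgeR and build hg19 are named, in roles that the notes leave unsaid. Which program counted reads, on which annotation, and whether by strand, is not given in the sources used here. Values were rounded to whole numbers. Library totals were 16408585 to 19077171, so a member with few counts has a wide counting error; without molecular identifiers, reads may be copies of one molecule.

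Genes kept by filterByExpr (minimum count 10) entered the main test, made in R 4.3.3 with edgeR 4.0.16 (TMM scaling, glmQLFit, glmQLFTest, group as the only term, two-sided), with Benjamini-Hochberg adjustment over 13668 genes at 0.05. SEs and 95% intervals come from that fit. It has no replicate term, so they include any spread that same-numbered libraries share. Log2 CPM used a prior count of 2. Scripts were tested on simulated data. Alternatives were other scalings and filters, DESeq2 1.42.0, limma-voom (limma 3.58.1), a replicate block and each library left out. An exact permutation of 3 against 3 libraries cannot go below 0.1 and was not used. Groups and numbers come from the titles; deviations from the group means correlated at 0.127, 0.394 and 0.566 in same-numbered libraries, each above 0.1, so these are called pairs. That pairing is read from the values, and knockdown 2 with control 1, of different numbers, correlated at 0.164, above the pair numbered 1; the other differently numbered combinations were below 0.

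Members, roles and lists were chosen with earlier results of these data known. Values per library are printed for the 2 most abundant members of each role, all transcription factors, for the 5 members of smallest p-value among the positive and among the negative differences, and for members whose highest library is over 10 times the lowest. For pathway genes the receptors and kinases, ligands with a count and the 3 smallest p-values of each list are named; 1 gene under this rule is not reported here. Other genes named singly were chosen after their values were seen.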

Additional observations from a re-analysis of the deposited data

How the results depend on the processing

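Under every alternative run, 0 genes, 0 members and 0 other pathway genes were called, so each count of calls was unchanged. The members' median log2 difference stayed negative, from −0.16 without knockdown 3 to −0.05 without knockdown 1. With a replicate block the members' median was −0.12, 0 members were called, 3 had an unadjusted p under 0.05 (GBP1, GBP2 and XAF1), and the direction turned for ISG20 only, to 0.0217. Directions also turned for ISG20 under total-count scaling (0.0145) and limma-voom (0.23), and for ADAR under total-count scaling (0.0209). That scaling shifted the median of all genes to 0.04 and gave 17 members above 0 in place of 15. Without both libraries numbered 2 the median was −0.15 for the sensors and −0.10 for the transcription factors, and 8 members turned: IRF1 (0.0864), OAS1 (−0.33), EIF2AK2 (−0.14), ADAR (0.0709), IFIT3 (−0.0461), IFITM2 (0.0078), IFI6 (0.10) and SAMD9 (−0.22). Leaving out 1 library at a time turned between 6 and 13 members, 13 without the library labelled control 2; the causes were not tested. Over these the median ran from −0.68 to −0.24 for the sensors, −0.0344 to 0.30 for the ISG15 system and −0.49 to 0.28 for the IFIT family with ISG20. Members that turned ran as follows: IFI16 −0.47 to 0.71, IRF1 −0.52 to 0.27, HERC5 −0.0824 to 0.85, TRIM25 −0.17 to 0.22 and OAS1 −0.17 to 0.39. OAS2 ran from −1.30 to 0.29, OAS3 from −0.10 to 0.98, EIF2AK2 from −0.085 to 0.17 and ADAR from −0.11 to 0.0492. IFIT2 ran from −0.49 to 0.28, IFIT3 from −0.11 to 0.45, IFIT5 from −0.34 to 0.13, ISG20 from −0.92 to 0.42 and MX2 from −0.41 to 0.23. IFITM2 ran from −0.28 to 0.0565, IFITM3 from −0.20 to 0.0518, BST2 from −0.44 to 0.10 and RSAD2 from −0.18 to 0.45. PARP9 ran from −0.22 to 0.0605, DTX3L from −0.0012 to 0.24, IFI6 from −0.62 to 0.42, IFI35 from −0.16 to 0.46, SAMD9 from −0.11 to 0.41 and TRIM21 from −0.38 to 0.0625. The other 19 tested members kept their sign but not their size: DDX58 ran from −0.95 to −0.12, DHX58 from −1.47 to −0.23, STAT2 from −1.22 to −0.28, ISG15 from 0.0918 to 0.53, USP18 from −0.51 to −0.0344, GBP1 from −2.70 to −1.08, GBP2 from −2.35 to −0.79, IFITM1 from −0.50 to −0.0093, XAF1 from 0.23 to 0.86 and SAMD9L from −0.80 to −0.15. Leaving out the library labelled control 2 moved 36 of the 43 by over 1.5 times, and each of the other 5 libraries 23 to 29. The median of the double-stranded RNA enzymes ran from −0.0539 without knockdown 3 to 0.22 without control 3. Depth limits members of few counts most, such as IFIT1, MX1, GBP1, OASL, ISG20 and IFI44.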

Other observations

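Outside the named genes, a few interferon-related genes that varied between libraries were chosen after their values were seen. The highest library was 7.06, 112 and 11.5 times the lowest for SAMHD1, CXCL10 and UBE2L6, and 1.83 times for B2M. SAMHD1, which depletes the nucleotides that viruses need, was at 41.5 CPM in the library labelled control 2 and at 154 to 293 CPM in the other 5 (log2 difference 0.52, SE 0.58, and 0.0746 without that library). CXCL10, a chemokine typical of an interferon response, was at 7.31, 8.56 and 12.004 CPM in knockdown 1 to 3 and at 1.42, 0.130 and 14.5 CPM in controls 1 to 3. The groups of CXCL10 overlapped, and its log2 difference was 0.79 (SE 1.17), or 0.22 without the library labelled control 2. UBE2L6, the E2 enzyme for ISG15, was at 6.63, 13.4 and 2.05 CPM against 8.06, 23.7 and 2.18 CPM, so that its level followed the replicate number. Its log2 difference of −0.62 (SE 0.90) turned to 0.53 without the library labelled control 2. B2M, the light chain of class I molecules, was at 1289 CPM in the library labelled control 2 and at 703 to 778 CPM in the other 5. The log2 difference of B2M was −0.36 (SE 0.27), and −0.058 without that library.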
